A study of Mus musculus with 11 samples.

Results

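The RefSeq annotation lists 66 protein-coding mouse genes of the classical guidance families, and all of them are described here in 11 RNA sequencing libraries from liver cancer cell lines. Members were taken by symbol alone, from families chosen with earlier results of these data known. They are Eph receptors (Epha, Ephb), ephrins (Efna, Efnb), semaphorins of classes 3 to 7, plexins, netrins with Ntn symbols, UNC5 receptors, Slits and Robo receptors. The 66 genes are among 36528 gene IDs that the tables list, and they fall into 14 families and semaphorin classes. The lines came from mouse liver tumours named for a mutant coactivator of the Hippo pathway. The groups were TAZ-S89A (gene Wwtr1, 5 libraries), YAP-5SA (gene Yap1, 3 libraries, spelled YAP-S5A in the sample labels) and YAP-S127A (gene Yap1, 3 libraries). In these mutants alanine replaces serine at sites that Hippo kinases phosphorylate, 1 named site in TAZ-S89A and YAP-S127A and several in YAP-5SA. Lines with unmutated YAP and TAZ were not analysed here, so every comparison is between mutants. Whether the libraries that share a mutation stem from different tumours, lines or dishes is not in the labels, nor is the way the mutant was introduced or the age of the mice. The p-values thus cover the spread among these libraries alone, possibly a technical one, and the mutant cannot be told apart from the identity of the line.

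Guidance molecules were first described as cues that attract or repel growing axons, and they also set cell position, adhesion and vessel growth in other tissues. Ephrins are membrane-bound ligands for Eph receptors, which are receptor tyrosine kinases. A-type ephrins hang on a lipid anchor and B-type ephrins span the membrane, and both partners of a contact can signal. Semaphorins act on plexins. Class 3 semaphorins are secreted and mostly need a neuropilin beside the plexin, classes 4 to 6 span the membrane and Sema7a has a lipid anchor. Netrins signal through Dcc, neogenin and UNC5 receptors, and Slits are secreted ligands of Robo receptors. In the liver, ephrin-B2 and Ephb4 are known from arterial and venous endothelium, and Slit2 with Robo1 from stellate cells and fibrosis.

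Total counts per library ran from 20071144 in TAZ-S89A replicate 5 to 49159713 in YAP-5SA replicate 2. The members together held 0.273% to 0.336% of counts in TAZ-S89A, 0.320% to 0.382% in YAP-5SA and 0.205% to 0.233% in YAP-S127A. Libraries within a group were not equally distinct. A chi-square of the gene counts, divided by its degrees of freedom, is near 1 where libraries differ by counting noise only. It was 2.01 between TAZ-S89A replicates 4 and 5, 5.63 between replicates 1 and 2 and 101 to 218 for the remaining TAZ-S89A pairs. In YAP-5SA it was 15.6 between replicates 1 and 3, and 83.0 and 131 for the pairs with replicate 2. The YAP-S127A pairs ran from 6.34 to 33.1. TAZ-S89A replicates 4 and 5, with totals of 20246736 and 20071144, carry sample IDs from a separate number series, and their values are given beside those of replicates 1 to 3. In bulk RNA, fewer cells of a type and less RNA per cell cannot be told apart.

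The hepatic label was checked against marker genes. Of 7 hepatocyte markers, Alb averaged 0.00446 ± 0.00997 CPM in TAZ-S89A, 0.0678 ± 0.0417 in YAP-5SA and 0.988 ± 0.325 in YAP-S127A. Only Hnf4a passed 1 CPM in any group mean, at 0.677 ± 0.0852, 7.16 ± 0.480 and 8.25 ± 0.873 CPM. CPM are counts scaled to a common library total, and ± gives the SD over 5, 3 and 3 libraries. Guidance genes are also used by other cell types, so their markers are given for all members together. Endothelial markers summed to 0.377 to 1.14, 0.980 to 1.36 and 8.76 to 11.2 CPM across the TAZ-S89A, YAP-5SA and YAP-S127A libraries, with Cdh5 at no more than 0.122 CPM in any group mean and Emcn alone at 7.61 CPM in YAP-S127A. Macrophage and leukocyte markers summed to 7.93 to 9.37, 51.5 to 54.0 and 14.9 to 15.1 CPM, with Ptprc at no more than 0.330 CPM. Of these, Csf1r averaged 1.82 ± 0.308, 28.2 ± 3.27 and 7.60 ± 0.351 CPM, and Lyz2 ran over 0.0408 to 0.259, 12.4 to 20.8 and 1.02 to 1.81 CPM, so both were highest in YAP-5SA. Neuron and glia markers summed to 17.7 to 22.8, 7.84 to 9.30 and 62.8 to 70.2 CPM, mostly from Map2, with Snap25 at no more than 0.0334 CPM and Rbfox3 at no more than 0.117 CPM. Fibroblast and stellate markers summed to 1782 to 3392, 278 to 376 and 5432 to 6004 CPM, with Lrat at no more than 0.0159 CPM and Des at no more than 0.342 CPM. The collagen gene Col1a1 averaged 31.0 ± 3.57, 322 ± 57.1 and 2949 ± 168 CPM, Col1a2 averaged 2219 ± 767, 16.2 ± 1.56 and 2273 ± 117 CPM, and Pdgfrb averaged 268 ± 37.1, 1.12 ± 0.112 and 474 ± 31.3 CPM. Col1a1 was lowest in TAZ-S89A, whereas Col1a2 and Pdgfrb were lowest in YAP-5SA. Pdgfra averaged 0.146 ± 0.0568, 1.22 ± 0.137 and 102 ± 4.60 CPM, and was lowest in TAZ-S89A too. So was Thy1, with no count in TAZ-S89A and 0.262 ± 0.0918 and 1.75 ± 0.143 CPM in YAP-5SA and YAP-S127A. Biliary markers summed to 1703 to 3612, 2693 to 4252 and 448 to 574 CPM, with Epcam at no more than 0.128 CPM. Krt7 averaged 1.41 ± 0.673, 1743 ± 434 and 102 ± 14.4 CPM and Krt19 averaged 7.38 ± 2.76, 1371 ± 340 and 55.9 ± 8.47 CPM, both highest in YAP-5SA. Spp1 was highest in TAZ-S89A, at 2736 ± 921, 203 ± 48.7 and 326 ± 43.4 CPM. Sox9 was lowest in YAP-5SA, at 17.9 ± 3.84, 7.97 ± 1.54 and 19.1 ± 0.342 CPM. The part of these differences in the members' levels was not tested.

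The mutant groups shared most of their expressed guidance genes. On the authors' nRPKM, a length-adjusted level that allows genes to be compared with each other, 31 members reached a group mean of at least 1 in TAZ-S89A, 32 in YAP-5SA and 28 in YAP-S127A. Of the 37 members that did so in any group, 24 did so in all 3. At a level of 10 nRPKM the numbers were 13, 11 and 5. Epha2, Sema3c, Plxnb2, Plxna1, Efnb2 and Unc5b stood above 9 nRPKM in every group mean. At the other end, Epha3 and Unc5d had no count in any library.

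**Figure D1:**
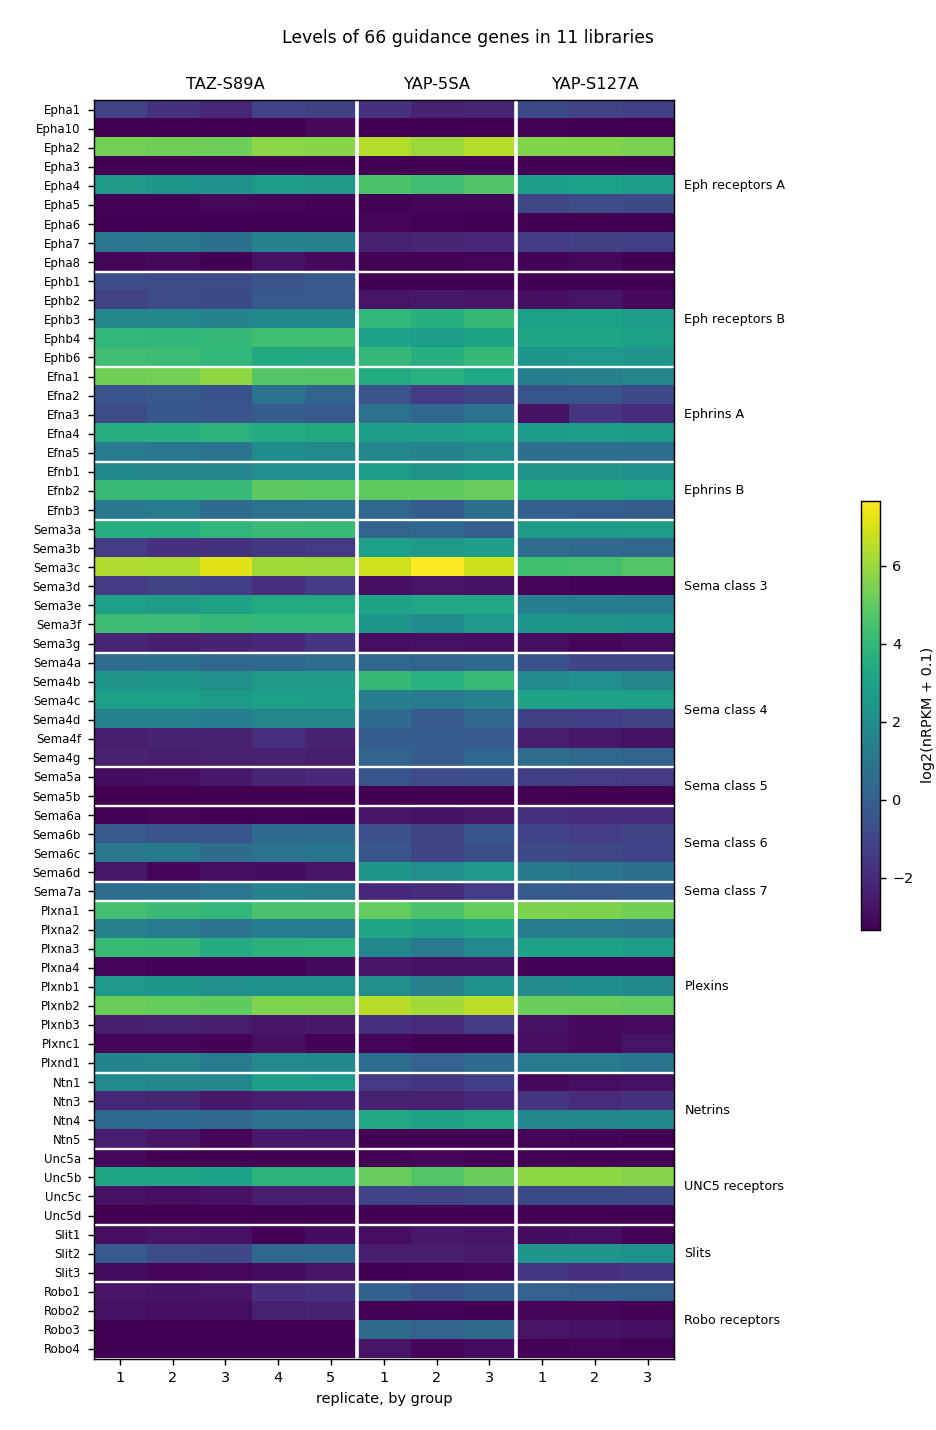
Level of all 66 members (rows, by family) in the 11 libraries (columns, TAZ-S89A then YAP-5SA then YAP-S127A) as log2 of nRPKM plus 0.1, dark for low and yellow for high. Sema3c, with group means of 88.7, 145 and 23.0 nRPKM, Epha2 and Plxnb2 are bright in every library, whereas Ntn1, Sema6d and Robo3 change between dark and lighter with the group.

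A low-count filter left 58 of the 66 members for testing. The other 8 were Epha3, Epha6, Epha8, Epha10, Sema5b, Unc5a, Unc5d and Robo4, with at most 9 counts in any library. Of the 58 tested members, 10 reached the filter's minimum in the libraries of 1 group only (Epha5, Ephb1, Sema3g, Plxna4, Plxnc1, Ntn5, Slit1, Slit3, Robo2 and Robo3). Among all 18224 tested genes, 2340 did so. Such genes entered the test through the group where they are high, so the shares below describe the tested members and not all 66. In TAZ-S89A against YAP-5SA, edgeR's quasi-likelihood test called 48 of 58 members (82.8%, against 57.9% of all 18224 genes tested), 25 higher (43.1%, against 26.9%) and 23 lower (39.7%, against 31.0%). In TAZ-S89A against YAP-S127A it called 47 (81.0%, against 57.6%), 30 higher (51.7%, against 27.0%) and 17 lower (29.3%, against 30.6%). In YAP-5SA against YAP-S127A it called 40 (69.0%, against 55.2%), 25 higher (43.1%, against 28.2%) and 15 lower (25.9%, against 27.0%). The share of lower members was close to the background in the contrasts with YAP-S127A. Calls are at a Benjamini-Hochberg adjusted p under 0.05 over all tested genes.

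Changes of the called members were large. Members called with at least a 2-fold change numbered 40 in TAZ-S89A against YAP-5SA (69.0%, against 33.8% of all tested genes), 39 in TAZ-S89A against YAP-S127A (67.2%, against 32.2%) and 34 in YAP-5SA against YAP-S127A (58.6%, against 34.4%). The median absolute log2 fold change of the tested members was 1.73, 1.46 and 1.38 in these comparisons, against 0.66, 0.63 and 0.68 over all tested genes. Their median signed log2 fold change was -0.03, 0.70 and 0.51, against -0.04, -0.03 and 0.01. Setting members absent from a group at their lower bound left these medians as they were. The comparisons share libraries, so their counts are not independent of each other.

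**Figure D2:**
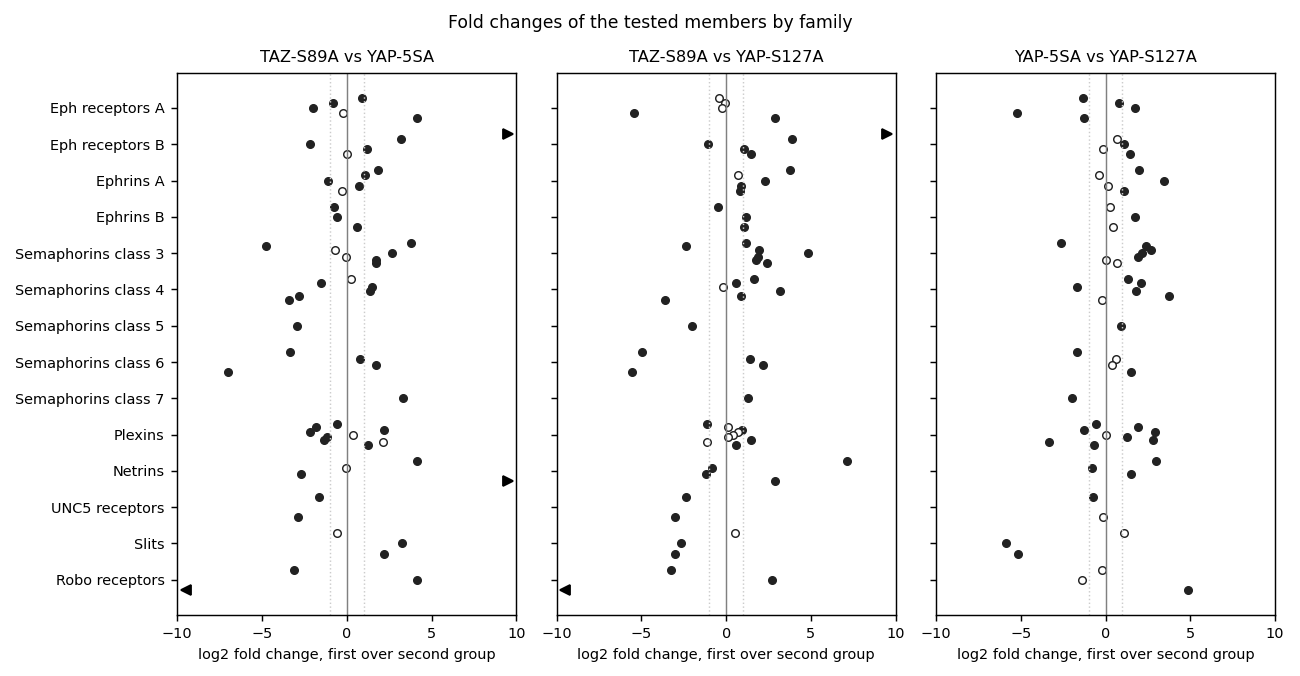
Log2 fold change (horizontal axis) of the 58 tested members by family in the 3 comparisons, with filled points for members called at an adjusted p under 0.05 and open points for the others. Dotted lines mark a 2-fold change and triangles at the edge mark members with no count in one of the groups (Ephb1, Ntn5 and Robo3). Ephb1, with no count in either group, and Ntn5, with 0 and 3 counts, are not drawn for YAP-5SA against YAP-S127A. Most families have members on both sides of 0, while both tested UNC5 receptors lie left of 0 in the TAZ-S89A comparisons.

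Sorted by group, 20 members were highest in TAZ-S89A and called against both other groups (34.5%, against 13.0% of all tested genes). They were Epha7, Ephb1, Ephb2, Ephb4, Efna1, Efna4, Efnb3, Sema3a, Sema3d, Sema3f, Sema3g, Sema4d, Sema6b, Sema6c, Sema7a, Plxna3, Plxnd1, Ntn1, Ntn5 and Robo2. YAP-5SA was highest for 16 members (27.6%, against 17.1%), namely Epha2, Epha4, Ephb3, Efna3, Efnb2, Sema3b, Sema4b, Sema4f, Sema5a, Sema6d, Plxna2, Plxna4, Plxnb2, Plxnb3, Ntn4 and Robo3. YAP-S127A was highest for 7 (12.1%, against 14.9%), namely Epha5, Sema6a, Plxna1, Ntn3, Unc5b, Slit2 and Slit3. These lists include members that reached the filter's minimum in 1 group only. They were Ephb1, Sema3g, Ntn5 and Robo2 for TAZ-S89A, Plxna4 and Robo3 for YAP-5SA, and Epha5 and Slit3 for YAP-S127A. TAZ-S89A was lowest for 13 members (22.4%, against 17.2%), YAP-5SA for 9 (15.5%, against 14.1%) and YAP-S127A for 14 (24.1%, against 13.8%). All 3 comparisons called 25 members (43.1%, against 22.2%), and none called Plxnb1 or Slit1 (2 of 58, 3.45%, against 19.3%).

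YAP and TAZ reach DNA through TEAD factors, which bind the motif GGAATG. On the opposite strand the same site reads CATTCC. The 250 bases before the annotated start are shown for an Eph receptor, an ephrin and a netrin that were highest in YAP-5SA (Epha2, Efnb2, Ntn4), and for Unc5b, the leading netrin receptor, which was highest in YAP-S127A. Sequences are from RefSeq on GRCm38.p6, 5′ to 3′ on the strand of the gene, with matches to the motif on either strand in capitals.
Epha2 (chr4:141300971-141301220, plus strand): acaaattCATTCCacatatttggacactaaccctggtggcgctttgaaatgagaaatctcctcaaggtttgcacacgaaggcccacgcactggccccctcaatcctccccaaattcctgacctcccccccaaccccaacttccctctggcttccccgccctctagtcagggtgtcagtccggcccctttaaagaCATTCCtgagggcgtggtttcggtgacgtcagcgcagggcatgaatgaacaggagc
Efnb2 (chr8:8661243-8661492, minus strand): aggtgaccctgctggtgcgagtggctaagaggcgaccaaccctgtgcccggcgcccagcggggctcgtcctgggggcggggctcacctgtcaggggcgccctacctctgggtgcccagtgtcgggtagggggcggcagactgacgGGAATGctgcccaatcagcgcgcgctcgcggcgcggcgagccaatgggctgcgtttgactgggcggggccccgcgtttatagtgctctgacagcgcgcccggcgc
Ntn4 (chr10:93640799-93641048, plus strand): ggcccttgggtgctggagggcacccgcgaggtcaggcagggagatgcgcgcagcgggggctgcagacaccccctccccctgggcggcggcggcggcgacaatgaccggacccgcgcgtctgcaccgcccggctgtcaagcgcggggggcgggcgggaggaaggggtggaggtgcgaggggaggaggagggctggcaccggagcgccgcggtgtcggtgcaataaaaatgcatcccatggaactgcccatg
Unc5b (chr10:60831582-60831831, minus strand): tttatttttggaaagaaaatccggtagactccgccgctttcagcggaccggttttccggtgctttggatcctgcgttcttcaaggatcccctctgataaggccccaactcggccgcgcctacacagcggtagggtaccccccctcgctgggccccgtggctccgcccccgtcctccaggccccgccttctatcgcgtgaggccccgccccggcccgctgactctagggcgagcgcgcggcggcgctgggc
Epha2 holds matches that begin 243 and 56 bases before its start and Efnb2 holds a match at 105 bases, whereas no such letters occur in the windows of Ntn4 and Unc5b. The table gave 73 windows for 57 members, and 8 of these held the motif, as did 4153 of 32851 windows of all genes (12.6%). The members with a match were Efnb2, Epha1, Epha2, Epha3, Ntn3, Plxnb1, Plxnd1 and Sema4a. Of the members highest in YAP-5SA that had a window, Epha2 and Efnb2 alone had a match. Sema3b and Plxna4, also highest in YAP-5SA, had no window and were not searched. The windows of Epha4, Ephb3, Efna3, Sema4b, Sema4f, Sema5a, Sema6d, Plxna2, Plxnb2, Plxnb3 and Robo3, also highest in YAP-5SA, held none. A match is a description of the letters in the window and not a measured binding site.

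Among A-type Eph receptors, the YAP-5SA libraries held the most Epha2 and Epha4, TAZ-S89A the most Epha7 and YAP-S127A nearly all Epha5. Epha2, a receptor common in epithelia and carcinomas, made up 84.4%, 77.2% and 85.1% of the summed A-type nRPKM in TAZ-S89A, YAP-5SA and YAP-S127A. Its level (Entrez gene 13836, chromosome 4, 141301221 to 141329384 on GRCm38) was 216, 202, 199, 259 and 252 CPM in TAZ-S89A, 434, 328 and 441 in YAP-5SA and 239, 243 and 223 in YAP-S127A. All YAP-5SA libraries stood above all others, and TAZ-S89A and YAP-S127A overlapped. Its log2 fold change was -0.83 for TAZ-S89A against YAP-5SA (SE 0.17, adjusted p = 0.000749), 0.77 for YAP-5SA against YAP-S127A (SE 0.19, adjusted p = 0.00366) and not called for TAZ-S89A against YAP-S127A (-0.06, SE 0.17, adjusted p = 0.792). Epha4, which binds ephrins of both types, averaged 45.1 ± 4.08 CPM in TAZ-S89A, 179 ± 22.5 in YAP-5SA and 54.3 ± 2.41 in YAP-S127A. It was lower in TAZ-S89A than in YAP-5SA (log2 fold change -1.99, SE 0.13) and higher in YAP-5SA than in YAP-S127A (1.72, SE 0.15).

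Epha7, a receptor for A-type ephrins, was at 19.5, 20.3, 15.8, 25.8 and 25.0 CPM in TAZ-S89A, 0.962, 1.27 and 1.43 in YAP-5SA and 2.67, 3.12 and 3.06 in YAP-S127A. None of the 3 groups overlapped. By the fit the log2 fold change was 4.12 for TAZ-S89A against YAP-5SA (SE 0.22, adjusted p = 1.31e-09), 2.85 against YAP-S127A (SE 0.20, adjusted p = 2.94e-08) and -1.27 for YAP-5SA against YAP-S127A (SE 0.22, adjusted p = 0.000268). Epha5 had 0.0944, 0.0891, 0.203, 0.122 and 0.0835 CPM in TAZ-S89A, 0.0534, 0.167 and 0.194 in YAP-5SA and 4.92, 5.74 and 5.30 in YAP-S127A. It was thus near 0 in all 8 TAZ-S89A and YAP-5SA libraries, with pooled counts of 20 and 17, against 587 in YAP-S127A. Its log2 fold change against YAP-S127A was -5.46 in TAZ-S89A (SE 0.29, adjusted p = 1.63e-09) and -5.21 in YAP-5SA (SE 0.33, adjusted p = 1.82e-08). Epha1 stayed at or under 1.81 CPM in every library, and its annotated span overlaps Zyx, so its counts are uncertain.

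B-type Eph receptors split by group as well. Ephb4, the partner of ephrin-B2, was higher in TAZ-S89A at 90.2 ± 8.72 CPM than in YAP-5SA at 40.0 ± 3.07 (log2 fold change 1.17, SE 0.12) and YAP-S127A at 44.1 ± 1.93 (1.03, SE 0.12). Ephb3, whose gene is known from intestinal crypt cells, was lowest in TAZ-S89A at 16.6 ± 0.810 CPM, against 74.5 ± 11.3 in YAP-5SA (-2.16, SE 0.12) and 35.2 ± 1.74 in YAP-S127A (-1.08, SE 0.12). Ephb6, a family member without kinase activity, had 105, 100.0, 84.3, 51.3 and 50.2 CPM in TAZ-S89A, 84.5, 63.2 and 85.9 in YAP-5SA and 28.1, 29.6 and 27.5 in YAP-S127A. TAZ-S89A overlapped YAP-5SA (log2 fold change 0.01, SE 0.23, adjusted p = 0.981), and both stood above YAP-S127A, by 1.46 in TAZ-S89A (SE 0.25, adjusted p = 0.000200) and by 1.46 in YAP-5SA (SE 0.27, adjusted p = 0.000397). Ephb1 was counted in TAZ-S89A only, with 125, 129, 95, 81 and 103 counts, against 0 in every YAP-5SA and YAP-S127A library. Over each group this is at least 126-fold higher in TAZ-S89A than in YAP-5SA and at least 116-fold higher than in YAP-S127A, at a floor of 3 counts. Its level in TAZ-S89A was low, at 3.24 ± 0.628 CPM. Ephb2 was at 3.65 ± 1.10, 0.389 ± 0.0360 and 0.248 ± 0.111 CPM in TAZ-S89A, YAP-5SA and YAP-S127A, and was called higher in TAZ-S89A against both (3.20, SE 0.32, and 3.87, SE 0.35).

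Of the ephrins, Efna1, the best-known ligand of Epha2, was highest in TAZ-S89A. Efna1 (Entrez gene 13636, chromosome 3, 89271730 to 89280951) stood at 81.5, 86.3, 119, 52.7 and 50.6 CPM in TAZ-S89A, 20.8, 26.2 and 18.7 in YAP-5SA and 5.17, 5.51 and 6.33 in YAP-S127A. The groups did not overlap, and the levels lay in that order from high to low. The fitted log2 fold change was 1.83 for TAZ-S89A against YAP-5SA (SE 0.26, adjusted p = 3.42e-05), 3.78 against YAP-S127A (SE 0.29, adjusted p = 8.97e-08) and 1.95 for YAP-5SA against YAP-S127A (SE 0.29, adjusted p = 5.57e-05). Efna1 made up 70.6% of the summed A-type ephrin nRPKM in TAZ-S89A and 47.0% in YAP-5SA, while Efna4 led in YAP-S127A with 55.7%. That sum averaged 54.8 ± 13.0 nRPKM in TAZ-S89A, 23.1 ± 1.08 in YAP-5SA and 11.4 ± 0.370 in YAP-S127A. Efna3 and Efna4 lie beside Efna1 on chromosome 3, within 89271730 to 89338028. Efna3 averaged 1.85 ± 0.300 CPM in TAZ-S89A, 4.02 ± 0.689 in YAP-5SA and 0.391 ± 0.250 in YAP-S127A, with its highest level thus in YAP-5SA. Efna4 was highest in TAZ-S89A at 22.9 ± 3.49 CPM, with 13.9 ± 0.619 in YAP-5SA and 12.4 ± 0.501 in YAP-S127A.

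Efnb2, the transmembrane ligand that marks arterial endothelium, led the B-type ephrins in every group. It was at 110.0, 106, 109, 175 and 167 CPM in TAZ-S89A, 197, 196 and 212 in YAP-5SA and 61.6, 60.6 and 56.7 in YAP-S127A. The groups did not overlap. Against YAP-S127A its log2 fold change was 1.16 in TAZ-S89A (SE 0.20, adjusted p = 0.000194) and 1.76 in YAP-5SA (SE 0.22, adjusted p = 1.12e-05). TAZ-S89A was lower than YAP-5SA (-0.60, SE 0.19, adjusted p = 0.0133), a call that was lost when only the libraries of those groups were fitted (adjusted p = 0.0589). Efnb1 was lowest in TAZ-S89A at 14.1 ± 1.41 CPM, against 23.8 ± 2.96 in YAP-5SA and 19.9 ± 0.794 in YAP-S127A. Efnb3, another transmembrane ephrin, was highest in TAZ-S89A at 9.97 ± 2.20 CPM, against 6.58 ± 1.71 in YAP-5SA and 4.91 ± 0.345 in YAP-S127A. Its call against YAP-5SA (0.60, SE 0.21, adjusted p = 0.0218) was lost without TAZ-S89A replicate 2 or without YAP-5SA replicate 1 or 2 (up to an adjusted p of 0.111).

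**Figure D3:**
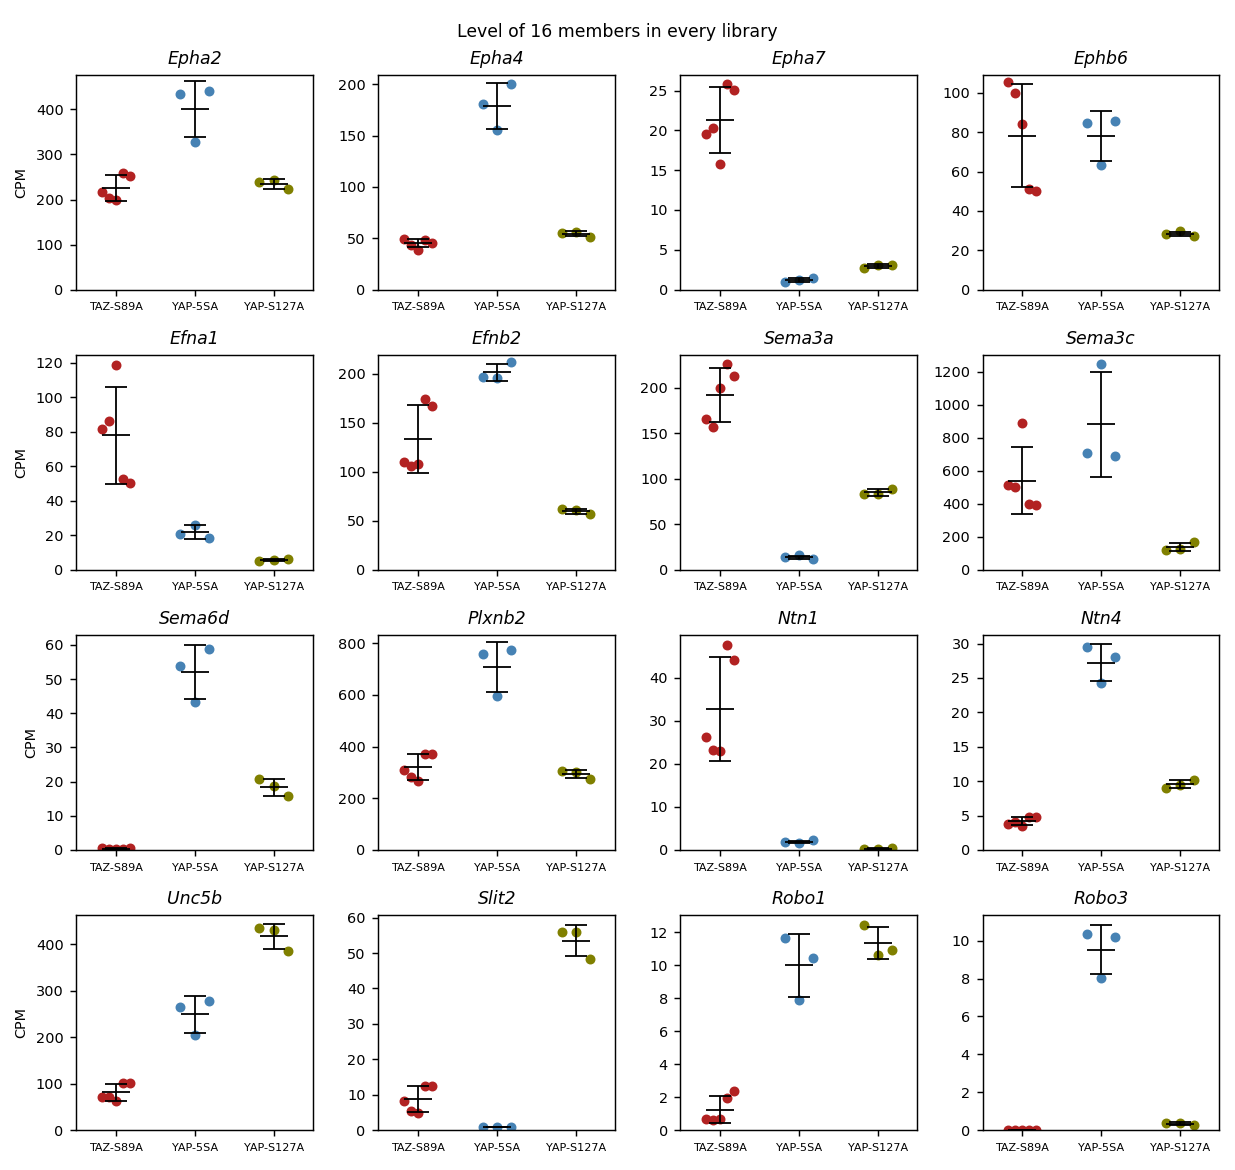
CPM (vertical axis, from 0, scale set per gene) of 16 members in each library, with TAZ-S89A in red, YAP-5SA in blue and YAP-S127A in olive, and bars at the group mean ± SD (n = 5, 3 and 3). Epha7, Efna1, Sema3a and Ntn1 are highest in TAZ-S89A, Epha2, Epha4, Plxnb2, Ntn4 and Robo3 in YAP-5SA and Unc5b and Slit2 in YAP-S127A.

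Secreted class 3 semaphorins were the most abundant ligands by length-adjusted level, and 6 of 7 were called higher in TAZ-S89A than in YAP-S127A, against 27.0% of all tested genes. Among these 6, Sema3g reached the filter's minimum in TAZ-S89A only, and Sema3d had just 5, 2 and 2 counts in the YAP-S127A libraries. The count thus describes tested members and is not a result about the class. The summed level of class 3 averaged 130 ± 30.0 nRPKM in TAZ-S89A, 167 ± 50.4 in YAP-5SA and 38.2 ± 3.65 in YAP-S127A. Sema3c, which signals through neuropilins and several plexins, made up 68.5%, 86.9% and 60.2% of these sums. It stood at 515, 503, 889, 398 and 392 CPM in TAZ-S89A, 708, 1245 and 688 in YAP-5SA and 121, 129 and 169 in YAP-S127A. TAZ-S89A and YAP-5SA overlapped, and both were above every YAP-S127A library, by a log2 fold change of 1.95 in TAZ-S89A (SE 0.32, adjusted p = 0.000161) and 2.66 in YAP-5SA (SE 0.36, adjusted p = 2.37e-05). The difference between TAZ-S89A and YAP-5SA was not called (-0.71, SE 0.29, adjusted p = 0.0533). It was called with RLE scaling, with DESeq2, with no low-count filter and without TAZ-S89A replicate 3 or YAP-5SA replicate 3 (range of the adjusted p over 16 alternatives 0.00359 to 0.328).

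Sema3a, a repellent that binds neuropilin 1, was at 166, 156, 199, 225 and 212 CPM in TAZ-S89A, 13.6, 15.7 and 12.1 in YAP-5SA and 83.0, 82.8 and 88.7 in YAP-S127A. The groups did not overlap, with YAP-5SA far below the others. The log2 fold change was 3.80 for TAZ-S89A against YAP-5SA (SE 0.18, adjusted p = 5.65e-10), 1.18 against YAP-S127A (SE 0.16, adjusted p = 2.59e-05) and -2.62 for YAP-5SA against YAP-S127A (SE 0.18, adjusted p = 4.24e-08). Sema3b, a relative studied as a tumour suppressor, had the opposite order at 1.84, 1.20, 1.25, 1.39 and 1.42 CPM in TAZ-S89A, 43.5, 34.7 and 40.2 in YAP-5SA and 8.22, 7.45 and 6.80 in YAP-S127A. It was lower in TAZ-S89A than in YAP-5SA (-4.79, SE 0.16, adjusted p = 1.32e-11) and YAP-S127A (-2.40, SE 0.16, adjusted p = 1.49e-08), and higher in YAP-5SA than in YAP-S127A (2.40, SE 0.17, adjusted p = 4.46e-08). The span of Sema3b overlaps Lsmem2, so its counts are uncertain. Sema3f, which prefers neuropilin 2, lies beside Sema3b on chromosome 9 but was highest in TAZ-S89A, at 86.6 ± 11.5 CPM against 26.2 ± 4.83 in YAP-5SA and 26.0 ± 1.21 in YAP-S127A (1.73, SE 0.16, in both comparisons). Sema3e, which binds plexin D1 without a neuropilin, was at 72.3 ± 12.3 and 75.3 ± 5.98 CPM in TAZ-S89A and YAP-5SA and at 19.9 ± 1.14 in YAP-S127A (1.86, SE 0.15, and 1.92, SE 0.17). Sema3d stayed at or under 2.87 CPM in every library.

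Among the membrane-bound semaphorins, Sema6d was the clearest difference between TAZ-S89A and the YAP groups. Sema6d, a ligand of plexin A1, had 0.637, 0.156, 0.377, 0.285 and 0.543 CPM in TAZ-S89A, 53.9, 43.3 and 58.9 in YAP-5SA and 20.7, 18.7 and 15.7 in YAP-S127A. No groups overlapped. Its span overlaps RIKEN transcripts, so its counts carry that uncertainty. Its log2 fold change was -7.03 for TAZ-S89A against YAP-5SA (SE 0.27, adjusted p = 5.69e-11), -5.53 against YAP-S127A (SE 0.27, adjusted p = 6.63e-10) and 1.50 for YAP-5SA against YAP-S127A (SE 0.24, adjusted p = 0.000125). Sema6a was also lowest in TAZ-S89A, at 0.0399 ± 0.0457 CPM, with 0.499 ± 0.104 in YAP-5SA and 1.57 ± 0.207 in YAP-S127A. Its log2 fold change was -3.34 for TAZ-S89A against YAP-5SA (SE 0.51, adjusted p = 7.50e-05) and -4.99 against YAP-S127A (SE 0.45, adjusted p = 4.73e-07). Sema6b and Sema6c were highest in TAZ-S89A, with 5.28 ± 1.77 and 12.0 ± 2.04 CPM in TAZ-S89A, 3.01 ± 0.816 and 3.60 ± 0.959 in YAP-5SA and 1.97 ± 0.269 and 2.71 ± 0.210 in YAP-S127A. The call of Sema6b between TAZ-S89A and YAP-5SA (0.80, SE 0.27, adjusted p = 0.0205) was lost without YAP-5SA replicate 1 or 2 and with TAZ-S89A replicates 1 to 3 only (up to an adjusted p of 0.102). Sema7a, a ligand of plexin C1 among other receptors, was at 6.23, 6.28, 7.94, 10.8 and 10.6 CPM in TAZ-S89A, 0.588, 0.693 and 1.26 in YAP-5SA and 3.45, 3.25 and 3.36 in YAP-S127A. The groups did not overlap, and the log2 fold change was 3.29 for TAZ-S89A against YAP-5SA (SE 0.29, adjusted p = 3.30e-07), 1.31 against YAP-S127A (SE 0.25, adjusted p = 0.000554) and -1.98 for YAP-5SA against YAP-S127A (SE 0.31, adjusted p = 8.89e-05). Plxnc1 itself was near 0, with pooled counts of 27, 4 and 41 in TAZ-S89A, YAP-5SA and YAP-S127A.

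Class 4 semaphorins changed in different directions. Sema4d, which binds plexin B1 and plexin B2, was at 27.0, 25.6, 23.5, 28.3 and 27.3 CPM in TAZ-S89A, 12.1, 7.22 and 11.1 in YAP-5SA and 2.83, 2.72 and 3.11 in YAP-S127A. The groups did not overlap, and TAZ-S89A was higher than YAP-5SA (1.38, SE 0.16, adjusted p = 5.65e-06) and YAP-S127A (3.19, SE 0.18, adjusted p = 3.83e-09), as YAP-5SA was against YAP-S127A (1.81, SE 0.19, adjusted p = 1.92e-06). Sema4b was at 27.9, 28.7, 22.7, 29.2 and 30.3 CPM in TAZ-S89A, 83.8, 66.6 and 87.5 in YAP-5SA and 19.1, 21.0 and 16.6 in YAP-S127A. All YAP-5SA libraries were above the rest, by -1.52 for TAZ-S89A against YAP-5SA (SE 0.13, adjusted p = 2.61e-07) and 2.07 for YAP-5SA against YAP-S127A (SE 0.16, adjusted p = 9.26e-08). TAZ-S89A stood a little above YAP-S127A (0.56, SE 0.14, adjusted p = 0.00359). Sema4c, a ligand of plexin B2, was at 43.0 ± 3.47 CPM in the TAZ-S89A libraries, 15.4 ± 1.78 in YAP-5SA and 48.5 ± 1.49 in YAP-S127A, lowest in YAP-5SA.

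Low-level semaphorins separated the groups too. Sema4g was at 0.755, 0.579, 0.609, 0.612 and 0.501 CPM in TAZ-S89A, 6.95, 5.02 and 7.77 in YAP-5SA and 9.11, 7.18 and 6.72 in YAP-S127A. Both YAP groups overlapped each other and stood above TAZ-S89A (-3.41, SE 0.20, adjusted p = 4.05e-09 against YAP-5SA, and -3.63, SE 0.20, adjusted p = 2.51e-09 against YAP-S127A). Sema4f had 0.519, 0.713, 0.667, 1.10 and 0.626 CPM in TAZ-S89A, 5.26, 5.23 and 4.84 in YAP-5SA and 0.468, 0.426 and 0.250 in YAP-S127A. YAP-5SA stood apart (-2.84, SE 0.23, adjusted p = 1.13e-07 for TAZ-S89A against it, and 3.72, SE 0.29, adjusted p = 1.23e-07 against YAP-S127A). The call of TAZ-S89A over YAP-S127A (0.89, SE 0.29, adjusted p = 0.0187) was lost without YAP-S127A replicate 3 (0.0989). Sema5a, which has thrombospondin repeats, was at 0.425, 0.468, 0.870, 1.51 and 1.84 CPM in TAZ-S89A, 8.60, 6.57 and 7.09 in YAP-5SA and 4.26, 3.97 and 3.47 in YAP-S127A. TAZ-S89A was below YAP-5SA (-2.95, SE 0.35, adjusted p = 7.05e-06) and below YAP-S127A (-2.02, SE 0.36, adjusted p = 0.000301). The call between YAP-5SA and YAP-S127A (0.93, SE 0.37, adjusted p = 0.0482) was lost under 8 of 16 alternatives, namely DESeq2, no low-count filter and the omission of any library of either group (range of the adjusted p 0.000580 to 0.137).

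Plexins, the semaphorin receptors, were present in every group, with 6 of 9 at a mean of at least 1 nRPKM in each. Plxnb2 led in TAZ-S89A and YAP-5SA, with 46.8% and 65.1% of the summed plexin nRPKM, and Plxna1 in YAP-S127A with 46.0%. Plxnb2, a receptor for class 4 semaphorins, was at 309, 283, 267, 372 and 373 CPM in TAZ-S89A, 757, 597 and 772 in YAP-5SA and 304, 300.0 and 274 in YAP-S127A. YAP-5SA stood above every other library, while TAZ-S89A and YAP-S127A overlapped. By the fit the log2 fold change was -1.14 for TAZ-S89A against YAP-5SA (SE 0.18, adjusted p = 0.000102), 0.13 against YAP-S127A (SE 0.19, adjusted p = 0.570) and 1.28 for YAP-5SA against YAP-S127A (SE 0.21, adjusted p = 0.000165). Plxna1, the receptor for Sema6d and, with neuropilins, for class 3 ligands, averaged 219 ± 29.0 CPM in TAZ-S89A, 325 ± 63.6 in YAP-5SA and 477 ± 23.4 in YAP-S127A (-1.12, SE 0.18, for TAZ-S89A against YAP-S127A). The call of TAZ-S89A against YAP-5SA (-0.57, SE 0.18, adjusted p = 0.0154) was lost with only those groups fitted and without YAP-5SA replicate 1 or 3 (up to 0.0752). The call of YAP-5SA against YAP-S127A (-0.55, adjusted p = 0.0361) was lost with no low-count filter, without YAP-5SA replicate 1 or 2 and without any YAP-S127A library (up to 0.125). Plxna3 was highest in TAZ-S89A and lowest in YAP-5SA, at 128 ± 25.4 CPM in TAZ-S89A, 28.1 ± 7.10 in YAP-5SA and 68.1 ± 3.65 in YAP-S127A. Plxna2 averaged 31.6 ± 4.16 CPM in TAZ-S89A, 109 ± 15.0 in YAP-5SA and 28.8 ± 2.52 in YAP-S127A, with its highest level thus in YAP-5SA. Plxnd1, the receptor of Sema3e, was at 25.6 ± 3.70, 10.7 ± 1.98 and 17.0 ± 1.37 CPM in TAZ-S89A, YAP-5SA and YAP-S127A. Plxnb1, a Sema4d receptor, was not called in any comparison, at 62.7 ± 10.1, 49.0 ± 12.4 and 47.6 ± 2.67 CPM. TAZ-S89A against YAP-S127A (0.40, SE 0.17, adjusted p = 0.0634) was called under 7 of 16 alternatives (range 0.0216 to 0.177).

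**Figure D4:**
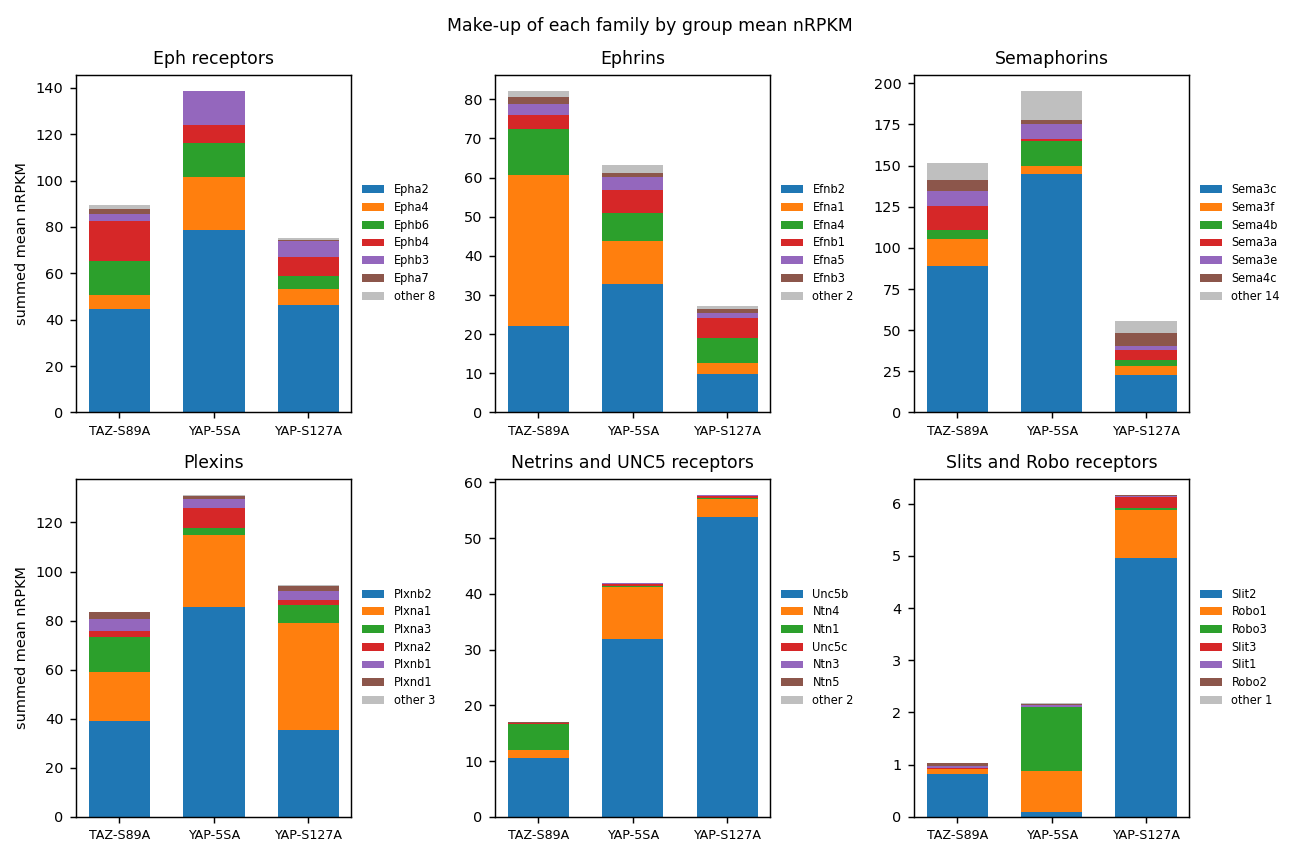
Summed group mean nRPKM (vertical axis, from 0, a different scale in each panel) for TAZ-S89A, YAP-5SA and YAP-S127A, split by member. Epha2 is the largest part of the Eph receptors and Sema3c of the semaphorins in all groups, Efna1 is the largest ephrin in TAZ-S89A (38.7 nRPKM) and small in YAP-S127A (2.83), and Unc5b is 10.6 nRPKM high in TAZ-S89A, 31.9 in YAP-5SA and 53.9 in YAP-S127A.

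The netrins exchanged places between groups. Ntn1, the founding axon attractant, was at 26.1, 23.2, 23.0, 47.5 and 44.1 CPM in TAZ-S89A, 1.76, 1.58 and 2.20 in YAP-5SA and 0.156, 0.230 and 0.333 in YAP-S127A. No groups overlapped, and the pooled counts were 5161, 223 and 26. The fitted log2 fold change was 4.14 for TAZ-S89A against YAP-5SA (SE 0.32, adjusted p = 6.56e-08), 7.10 against YAP-S127A (SE 0.40, adjusted p = 3.59e-09) and 2.96 for YAP-5SA against YAP-S127A (SE 0.43, adjusted p = 5.42e-05). Ntn4, a netrin of basement membranes related to laminins, was at 3.82, 4.01, 3.42, 4.77 and 4.76 CPM in TAZ-S89A, 29.4, 24.2 and 28.1 in YAP-5SA and 9.03, 9.48 and 10.1 in YAP-S127A. Again no groups overlapped, with changes of -2.72 for TAZ-S89A against YAP-5SA (SE 0.14, adjusted p = 8.00e-10), -1.21 against YAP-S127A (SE 0.14, adjusted p = 5.26e-06) and 1.51 for YAP-5SA against YAP-S127A (SE 0.16, adjusted p = 1.84e-06). Ntn1 made up 75.1% of the summed netrin nRPKM in TAZ-S89A, and Ntn4 made up 96.1% in YAP-5SA and 93.5% in YAP-S127A. Ntn5 had 38 counts over TAZ-S89A, none over YAP-5SA and 3 over YAP-S127A, which is at least 8.97-fold higher than in YAP-5SA and a ratio of 8.29 to YAP-S127A (95% counting interval 2.63 to 42.0). Ntn3 stayed at or under 1.27 CPM in every library, and its calls in YAP-S127A were lost under 2 of 16 alternatives for TAZ-S89A (up to an adjusted p of 0.0768) and 6 for YAP-5SA (up to 0.138). The spans of Ntn3 and Ntn5 overlap Tbc1d24 and Sec1, so both are uncertain.

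The netrin receptor Unc5b, known from endothelium and as a dependence receptor, was lowest in TAZ-S89A and highest in YAP-S127A. It was at 70.9, 70.1, 62.1, 101 and 100.5 CPM in TAZ-S89A, 265, 204 and 277 in YAP-5SA and 434, 430.2 and 386 in YAP-S127A. The groups did not overlap. The log2 fold change was -1.62 for TAZ-S89A against YAP-5SA (SE 0.19, adjusted p = 6.68e-06), -2.36 against YAP-S127A (SE 0.19, adjusted p = 1.75e-07) and -0.74 for YAP-5SA against YAP-S127A (SE 0.22, adjusted p = 0.0113). Unc5b made up 99.4%, 98.8% and 99.2% of the summed UNC5 nRPKM in TAZ-S89A, YAP-5SA and YAP-S127A. Unc5c had 0.519, 0.401, 0.580, 0.979 and 1.04 CPM in TAZ-S89A, 4.57, 4.76 and 5.45 in YAP-5SA and 5.55, 5.54 and 5.44 in YAP-S127A. Both YAP groups overlapped and lay above TAZ-S89A (-2.87, SE 0.25, adjusted p = 2.32e-07 against YAP-5SA, and -3.03, SE 0.25, adjusted p = 1.52e-07 against YAP-S127A). Of the other netrin receptors, Dcc had a group mean of at most 0.150 CPM and neogenin (Neo1) averaged 68.7 ± 17.1 CPM in TAZ-S89A, 89.7 ± 7.21 in YAP-5SA and 61.7 ± 2.83 in YAP-S127A.

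Slits and Robo receptors were low apart from Slit2 in YAP-S127A. Slit2, which lies on chromosome 5 between 47981291 and 48307735 on GRCm38, had 8.14, 5.50, 4.78, 12.4 and 12.4 CPM in TAZ-S89A, 0.962, 0.956 and 0.823 in YAP-5SA and 56.0, 56.1 and 48.4 in YAP-S127A. No groups overlapped, and the log2 fold change was 3.23 for TAZ-S89A against YAP-5SA (SE 0.34, adjusted p = 1.91e-06), -2.64 against YAP-S127A (SE 0.26, adjusted p = 1.19e-06) and -5.87 for YAP-5SA against YAP-S127A (SE 0.38, adjusted p = 1.93e-08). Slit3 was at or under 1.43 CPM in every library and had the same order of groups, with pooled counts of 27, 4 and 148 in TAZ-S89A, YAP-5SA and YAP-S127A. Robo1, a Slit receptor, had 0.661, 0.602, 0.667, 1.92 and 2.34 CPM in TAZ-S89A, 11.6, 7.91 and 10.4 in YAP-5SA and 12.4, 10.6 and 10.9 in YAP-S127A. Both YAP groups overlapped and stood above TAZ-S89A (-3.10, SE 0.36, adjusted p = 5.46e-06 against YAP-5SA, and -3.28, SE 0.36, adjusted p = 3.53e-06 against YAP-S127A). Robo2, also on chromosome 16, was higher in TAZ-S89A at 0.823 ± 0.464 CPM than in YAP-5SA at 0.0427 ± 0.0403 (4.13, SE 0.71) and YAP-S127A at 0.114 ± 0.0523 (2.73, SE 0.60).

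Robo3, a divergent Robo receptor that binds Nell2, was found almost entirely in YAP-5SA. All 5 TAZ-S89A libraries had 0 counts, while YAP-5SA had 387, 337 and 422 (10.3, 8.05 and 10.2 CPM) and YAP-S127A 17, 11 and 9 (0.379, 0.361 and 0.250 CPM). TAZ-S89A was therefore at least 539-fold lower than YAP-5SA and at least 18.9-fold lower than YAP-S127A, at a floor of 3 counts over the group. YAP-5SA was higher than YAP-S127A by 4.83 on the log2 scale (SE 0.27, adjusted p = 1.98e-07). The endothelial receptor gene Robo4, next to Robo3 on chromosome 9, was not tested and had 0 counts in TAZ-S89A, 18 in YAP-5SA and 4 in YAP-S127A. Nell2, the Robo3 ligand, was also highest in YAP-5SA, with 2.27 ± 0.452 CPM in TAZ-S89A, 29.0 ± 1.27 in YAP-5SA and 0.829 ± 0.317 in YAP-S127A. Its log2 fold change was -3.69 for TAZ-S89A against YAP-5SA (SE 0.19) and 5.12 for YAP-5SA against YAP-S127A (SE 0.26).

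Other genes of the guidance pathways changed in both directions. Of 61 listed co-receptors, other ligands, signal transducers and shedding enzymes, 53 were tested. TAZ-S89A had 14 of these higher and 25 lower than YAP-5SA, where 26.9% and 31.0% of all tested genes were called. TAZ-S89A had 12 higher and 20 lower than YAP-S127A, where the shares of all tested genes were 27.0% and 30.6%. YAP-5SA had 18 higher and 19 lower than YAP-S127A, beside 28.2% and 27.0% of all tested genes. The median log2 fold changes of the list were -0.32, -0.09 and 0.04. Of genes singled out after their values were seen, the neuropilin Nrp2, co-receptor of Sema3f, averaged 164 ± 40.3 CPM in TAZ-S89A, 28.1 ± 1.19 in YAP-5SA and 137 ± 9.53 in YAP-S127A. Nrp1, the co-receptor of Sema3a, averaged 87.8 ± 16.6, 52.5 ± 3.09 and 60.8 ± 2.87 CPM in the same order of groups. Among signal transducers, Mical1, a redox enzyme downstream of plexins, averaged 0.348 ± 0.119 CPM in TAZ-S89A, 0.502 ± 0.169 in YAP-5SA and 52.7 ± 2.05 in YAP-S127A. Its relative Mical2 was at 73.1 ± 9.60, 331 ± 51.7 and 568 ± 43.5 CPM, and the kinase gene Fes at 1.51 ± 0.336, 11.5 ± 1.60 and 86.5 ± 1.79 CPM. Srgap1, a GTPase-activating protein downstream of Robo, was lower in TAZ-S89A at 3.75 ± 1.14 CPM than in YAP-5SA at 54.7 ± 8.51 (-3.85, SE 0.20) and YAP-S127A at 25.4 ± 1.53 (-2.74, SE 0.20). The Rac activator Tiam1 was higher in TAZ-S89A at 21.3 ± 3.78 CPM than in YAP-5SA at 12.0 ± 2.14 (0.82, SE 0.17) and YAP-S127A at 2.79 ± 0.226 (2.93, SE 0.19). Rnd1, Ngef and Flrt3 were highest in YAP-5SA. Rnd1 ran over 11.7 to 22.4 CPM in TAZ-S89A, 59.1 to 73.1 in YAP-5SA and 6.69 to 8.86 in YAP-S127A. Ngef averaged 0.679 ± 0.174, 6.47 ± 1.02 and 0.450 ± 0.217 CPM in that order of groups, and Flrt3 averaged 2.54 ± 1.09, 18.2 ± 0.673 and 2.83 ± 0.0398 CPM. Plxdc2 averaged 0.493 ± 0.179 CPM in TAZ-S89A, 0.890 ± 0.172 in YAP-5SA and 7.27 ± 0.297 in YAP-S127A, where it was highest.

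For some members the nearest genes on the chromosome had shifted levels as well. Around Sema3a, Sema3c and Sema3e on chromosome 5, the 10 nearest tested genes that are no members had a median log2 fold change of 2.11, 2.79 and 2.54 for TAZ-S89A against YAP-S127A, against 1.18, 1.95 and 1.86 for the members themselves. The median of chromosome 5 was 0.26 in that comparison. The 10 neighbours of each gene were spread over 8.91, 4.67 and 9.38 megabases. Sema3a lies at 13124822 to 13603485 and Sema3e at 14025276 to 14256689, so their neighbour sets may share genes. For TAZ-S89A against YAP-5SA the neighbours' medians were 0.85, 1.16 and 1.80, against 3.80, -0.71 and -0.06 for Sema3a, Sema3c and Sema3e. For YAP-5SA against YAP-S127A they were 0.11, 0.63 and -0.38, against -2.62, 2.66 and 1.92. The shift in the same direction for all 3 genes and their neighbours was thus seen in 1 of the 3 comparisons. Sema3d, also on chromosome 5, had a log2 fold change of 4.79 for TAZ-S89A against YAP-S127A, and its neighbours had a median of -0.80. It lies at 12383161 to 12588953, close to Sema3a, and its 10 neighbours were spread over 7.60 megabases. The neighbour sets of Sema3d and Sema3a may thus share genes, although their medians were -0.80 and 2.11. A median over 10 neighbours is therefore a rough measure in this region. Around Plxna2 on chromosome 1 the neighbours' median was -2.18 for TAZ-S89A against YAP-5SA, against -1.79 for Plxna2. For TAZ-S89A against YAP-S127A it was -1.09, against 0.13 for Plxna2, and for YAP-5SA against YAP-S127A 1.01, against 1.93. By contrast, the neighbours of Ntn1 (-0.32 and 0.22 for TAZ-S89A against YAP-5SA and YAP-S127A), Sema6d (0.16 and 0.00) and Epha7 (0.60 and 0.04) had medians far below the size of these members' own changes. The part of chromosome position in the members' levels was not tested. Chromosome 9, which holds Sema3b, Sema3f, Sema7a, Ephb1, Plxnb1, Robo3 and Robo4, had a median of -0.56 for TAZ-S89A against YAP-5SA and -0.67 against YAP-S127A over its 908 tested genes. Chromosome 17, which holds Efna5, Sema6b and Ntn3, had a median of 0.95 for TAZ-S89A against YAP-5SA over its 844 tested genes. It was 0.20 for TAZ-S89A against YAP-S127A and -0.70 for YAP-5SA against YAP-S127A. In TAZ-S89A against YAP-5SA, Sema6b was at 0.80 with a neighbours' median of 1.02, Efna5 at -0.28 with 0.96 and Ntn3 at -0.07 with 1.02.

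Within TAZ-S89A, replicates 4 and 5 both stood above replicates 1 to 3 for 27 of 58 tested members (46.6%, against 23.9% of all tested genes), and below them for 8 (13.8%, against 29.4%). The ratio of mean CPM, replicates 4 and 5 over 1 to 3, was largest for Robo1 at 3.31, Sema5a at 2.85 and Robo2 at 2.70, and smallest for Ephb6 at 0.525 and Efna1 at 0.540. Ntn1 was at 1.90, Slit2 at 2.02 and Efnb2 at 1.58. The second ID series holds no YAP library, so it can be set against the first within TAZ-S89A only. With replicates 1 to 3 alone, the calls of Epha1 (0.91, adjusted p = 0.0333) and Sema6b against YAP-5SA were lost, and Efna5 (-0.28, adjusted p = 0.262 with all libraries) was called lower than in YAP-5SA at an adjusted p of 0.000924. The call of Epha1 was not stable to the omission of single libraries either (up to an adjusted p of 0.129). Within YAP-5SA, replicate 2 was the lowest library for 37 of 58 members (63.8%, against 44.6% of all tested genes) and the highest for 7 (12.1%, against 39.3%), of which Sema3c was 1.

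**Figure D5:**
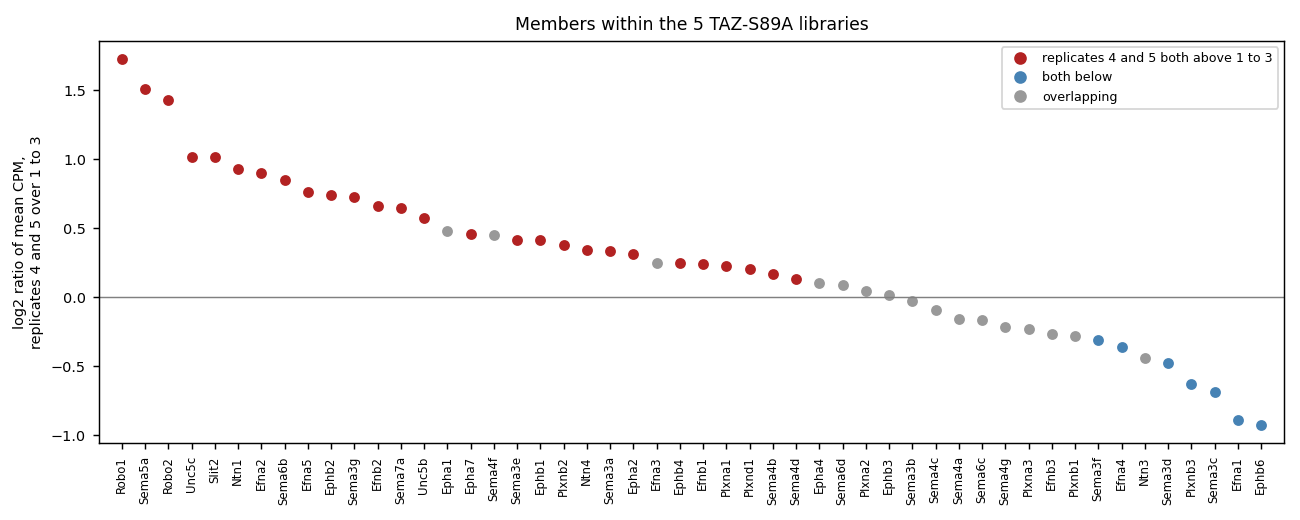
Log2 ratio (vertical axis) of mean CPM in TAZ-S89A replicates 4 and 5 over replicates 1 to 3, for members with at least 50 counts over the group, sorted by ratio (horizontal axis). Red marks members with both libraries of the second ID series above all of the first, blue both below and grey overlap. Robo1 lies highest, at a ratio of 3.31, and Ephb6 lowest, at 0.525.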

How the data were processed

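Polyadenylated RNA was extracted with a Qiagen RNeasy kit, per the labels' protocols. The authors deposited, per the file headers, a raw read count and an nRPKM value (RPKM adjusted by a size factor per library by the authors) for 36528 Entrez gene IDs in each of 11 libraries. Reads were aligned with GSNAP to GRCm38, per the submitters' processing notes. Not given in the sources used here were the counting tool, the annotation, versions and the strandedness of counting, so genes that overlap others are uncertain. RefSeq symbols matched 31049 IDs, and the 5479 unmatched IDs held 2.91% of counts. Samples were grouped by the mutation label, with YAP-S5A read as YAP-5SA, and replicates numbered in accession order.

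Counts of genes with at least about 10 counts in 3 libraries (edgeR's filterByExpr, 18224 genes) were fitted over all 11 libraries with TMM scaling and a group term by edgeR's quasi-likelihood test (edgeR 4.0.16, limma 3.58.1, R 4.3.3), adjusted by Benjamini-Hochberg over all tested genes. Log2 fold changes are from that fit. CPM use TMM-scaled totals, and nRPKM serve to compare genes. Counting intervals (95%, exact) and floors (3 counts over a group) cover counting error only. Values in every library are given for the 8 called members with the largest change per comparison (at least 5 CPM in the higher group and no overlap) and the highest member of each family, 24 in all. Of other pathway genes, up to 5 per comparison are named by the same order, and Neo1, Nrp1, Nrp2 and Dcc were added after their values were seen, as were members outside the 24 that carry a fold change. The 16 alternatives were RLE scaling, DESeq2 1.42.0, no low-count filter, only the groups compared, the first TAZ-S89A ID series only and the omission of each library. The members and lists were chosen with earlier results of these data known.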

Additional observations from a re-analysis of the deposited data

Results flagged for a closer look

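Among the 23 checks of member levels in the TAZ-S89A libraries, 1 library stood apart from the other 4 of its group. Sema3c was at 889 CPM in TAZ-S89A replicate 3, against 392 to 515 CPM in the other TAZ-S89A libraries. The gap to the nearest library made up 0.753 of the group's range, above Dixon's 95% critical value for 5 samples. Chance flags about 1 group in 20. Without this library, Sema3c was called lower in TAZ-S89A than in YAP-5SA.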

How the results depend on the processing

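Over the 16 alternatives, members called higher and lower numbered 21 to 27 and 21 to 25 in TAZ-S89A against YAP-5SA, 29 to 32 and 16 to 17 in TAZ-S89A against YAP-S127A, and 24 to 27 and 13 to 15 in YAP-5SA against YAP-S127A. Members called with at least a 2-fold change numbered 38 to 42, 36 to 40 and 33 to 34. Of 172 member comparisons, 135 were called, 124 of these under every alternative run and 11 not under at least 1, and 10 of the 37 not called were called under at least 1. Beside those named above, Efna2 lost its call against YAP-5SA without YAP-5SA replicate 2 (adjusted p = 0.0686). Direction changed only for members that were not called. With only the groups compared, Sema3f in YAP-5SA against YAP-S127A had a log2 fold change of -0.0089, and with the first ID series only -0.024. With the first ID series only, Plxnb2 had -0.049 in TAZ-S89A against YAP-S127A and Ntn3 0.091 in TAZ-S89A against YAP-5SA. Leaving out each library gave -0.10 to 0.041 for Epha2 in TAZ-S89A against YAP-S127A. In TAZ-S89A against YAP-5SA it gave -0.60 to 0.057 for Epha5, -0.12 to 0.14 for Ephb6, -0.23 to 0.11 for Ntn3 and -0.13 to 0.012 for Sema3e. In YAP-5SA against YAP-S127A it gave -0.10 to 0.24 for Plxnb1 and -0.092 to 0.15 for Sema3f. The cause was not tested. No paired analysis was possible because the labels carry no replicate numbers. Low counts limit the 8 members left out by the filter, with at most 9 counts in any library.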
